A study of Mus musculus with 8 samples.

Results

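The genes of antigen presentation by the major histocompatibility complex (MHC) were described in notochord-derived cells (NDCs) of the mouse. They were 10 genes chosen by name, of 43346 gene identifiers, by a rule that uses no measured value. Of these, 6 belong to class I: the heavy chains H2-K1 and H2-D1, the light chain B2m, the peptide transporter subunits Tap1 and Tap2, and tapasin (Tapbp). The other 4 belong to class II: the invariant chain Cd74, the alpha chain H2-Aa and the beta chains H2-Ab1 and H2-Eb1. RNA of 4 litters at embryonic day 12.5 (E12.5) was compared with that of 4 litters at postnatal day 0 (P0), the ends of the period in which the notochord becomes the nucleus pulposus (NP). Every animal carried Shh-cre;ROSA:YFP, in which cells that express Shh, and all their descendants, are marked by YFP, and each sample pooled the animals of a single litter. The E12.5 litters were NDP10.2, NPD3, NPD4 and NPD9.2, from which whole notochords were dissected and frozen in TRIzol without sorting. The P0 litters were NPD26, NPD27, NPD28 and NPD30, from which NP cells were dissociated mechanically, strained and sorted for YFP. Stage and isolation cannot be told apart. Shh-cre marks every Shh lineage, not the notochord alone, and the H2 haplotype of the mice was not given in the sources used here.

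MHC class I molecules present peptides of cytosolic proteins on nearly all nucleated cells to CD8+ T cells. The proteasome cuts the peptides, the TAP transporter carries them into the endoplasmic reticulum, and tapasin helps load them onto a heavy chain paired with beta-2 microglobulin. MHC class II molecules present peptides of endocytosed proteins to CD4+ T cells and are made mainly by B cells, dendritic cells and macrophages; the invariant chain occupies their groove until lysosomal proteases remove it. Interferon gamma raises both classes in many cell types, class I through NLRC5 and class II through CIITA. Embryonic tissues are known for low class I levels.

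Positions are those of Gencode M21 on GRCm38. Of the members, 8 are in or beside the H2 complex on chromosome 17: Tapbp (chr17:33915899-33929292), H2-K1 (chr17:33996017-34000347), Tap1 (chr17:34187553-34197225), Tap2 (chr17:34203527-34216321), H2-Ab1 (chr17:34257689-34269419), H2-Aa (chr17:34282744-34287823), H2-Eb1 (chr17:34305867-34316674) and H2-D1 (chr17:35262730-35267499). B2m lies outside it (chr2:122147686-122153083), as does Cd74. RefSeq promoter windows on GRCm38.p6 were found for 7 of the 10, with no entry for Tap2, Cd74 or H2-Ab1. The 250 bases before each start were searched on both strands for 5 motifs known from MHC promoters. These were the 10-letter kappa B palindrome of the class I enhancer, the core of the interferon-stimulated response element, the core of the X1 box, TGACG (the X2 box or cyclic AMP response element core) and CCAAT (the Y box, ATTGG on the other strand). Of 32817 promoter windows in the table, 0.0853% held the kappa B palindrome, 2.97% the interferon response core, 2.49% the X1 core, 17.7% TGACG and 33.8% CCAAT.

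The heavy chain and B2m promoters are printed first, because these genes had the highest mean P0 levels among the members. Matches are in capitals and each sequence is 5′ to 3′ on the gene's strand. H2-K1 is shown at its first RefSeq start (chr17:34000348-34000597, minus strand), H2-D1 at chr17:35262844-35263093 (plus strand) and B2m at chr2:122147437-122147686 (plus strand).
H2-K1: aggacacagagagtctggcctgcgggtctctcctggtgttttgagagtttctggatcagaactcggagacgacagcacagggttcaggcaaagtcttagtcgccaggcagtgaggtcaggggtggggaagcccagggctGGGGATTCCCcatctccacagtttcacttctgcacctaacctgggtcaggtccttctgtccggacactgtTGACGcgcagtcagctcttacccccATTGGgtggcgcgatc
H2-D1: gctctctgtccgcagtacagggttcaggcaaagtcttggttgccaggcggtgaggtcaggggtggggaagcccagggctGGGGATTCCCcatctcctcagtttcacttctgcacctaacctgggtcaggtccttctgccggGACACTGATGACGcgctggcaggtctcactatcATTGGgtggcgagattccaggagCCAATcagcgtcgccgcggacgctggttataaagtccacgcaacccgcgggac
B2m: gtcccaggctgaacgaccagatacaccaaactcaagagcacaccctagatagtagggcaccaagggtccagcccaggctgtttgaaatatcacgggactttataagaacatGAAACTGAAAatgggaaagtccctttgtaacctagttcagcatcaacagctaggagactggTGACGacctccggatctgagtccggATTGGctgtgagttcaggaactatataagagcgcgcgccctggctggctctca
Both heavy chain windows held the kappa B palindrome, the leftmost capitals, at -111 in H2-K1 and -171 in H2-D1, counted back from the RefSeq start, and their sequences resemble each other because the genes are homologous. B2m held the interferon response core at -139 and no exact match to the kappa B palindrome. In H2-D1 the X1 core at -109 overlapped TGACG at -101.

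The class II windows with an entry are printed for comparison with class I, H2-Aa (chr17:34287824-34288073, minus strand) and H2-Eb1 (chr17:34305617-34305866, plus strand). The stretch between Tap1 and Psmb9, a subunit of the immunoproteasome, is printed because these genes start on opposite strands of the same 225 bases (chr17:34187331-34187555, shown on the Tap1 strand).
H2-Aa: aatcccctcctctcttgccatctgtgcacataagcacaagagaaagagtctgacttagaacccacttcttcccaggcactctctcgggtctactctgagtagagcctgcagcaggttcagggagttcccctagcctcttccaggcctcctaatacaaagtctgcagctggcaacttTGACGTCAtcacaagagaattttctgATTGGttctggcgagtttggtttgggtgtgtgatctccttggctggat
H2-Eb1: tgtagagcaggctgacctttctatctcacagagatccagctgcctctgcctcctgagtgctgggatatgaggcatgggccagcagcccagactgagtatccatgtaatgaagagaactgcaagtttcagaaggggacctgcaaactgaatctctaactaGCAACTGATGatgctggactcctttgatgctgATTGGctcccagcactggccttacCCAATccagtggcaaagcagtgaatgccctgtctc
Tap1 and Psmb9: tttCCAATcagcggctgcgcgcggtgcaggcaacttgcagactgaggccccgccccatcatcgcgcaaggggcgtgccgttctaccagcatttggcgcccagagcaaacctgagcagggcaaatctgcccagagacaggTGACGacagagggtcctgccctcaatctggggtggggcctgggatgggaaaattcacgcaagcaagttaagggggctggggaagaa
H2-Eb1 held the X1 core at -91 and H2-Aa held TGACG at -74, overlapping its reverse CGTCA at -71. In 4 of the 7 member windows TGACG was followed by ATTGG with 25 or 26 bases from start to start: H2-K1, H2-D1 and B2m at 25, and H2-Aa at 26. That spacing was chosen after the matches were seen. It was present in 27 of the 32817 windows (0.0823%), among them 1 of 15 windows of other class I heavy chains and relatives, that of H2-M3. Tapbp held only ATTGG, at -248 and -165. A match describes letters and is not a measured binding site. Variants of the motifs were not searched, so the lack of a match does not show that a window lacks a site.

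Each E12.5 litter had 4442775 to 7180221 reads counted on genes, and each P0 litter 6371842 to 8904050. Levels are given as CPM, counts scaled to a common library size after TMM normalization, and 3 counts equal 0.353 to 0.738 CPM, a floor that covers counting error only. Summed notochord and NP markers reached 2382 to 6367 CPM in the E12.5 litters and 8220 to 31824 CPM in those of P0. Car3 alone measured 695 to 2418 CPM at E12.5 and 6250 to 24889 CPM at P0, highest in NPD30. The P0 sums thus depend strongly on Car3. It was among the 3 of 9 tested that rose, and Shh and Foxa1 were the 2 that fell. Noto, of the early notochord, had at most 0.433 CPM. Of 7 housekeeping genes only Hprt passed, with a list median log2 fold change of 0.53. Leukocyte markers were also present. The sum of 12 pan-leukocyte markers was 98.7 to 171 CPM at E12.5 and 3396, 4009, 4638 and 537 CPM in NPD26, NPD27, NPD28 and NPD30. NPD30 stood apart from the other P0 litters, with the lowest pan-leukocyte sum and the highest notochord and NP sum, so the fold change of each member is also given without it. In bulk samples fewer cells of a type and less RNA per cell cannot be told apart.

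H2-K1 and H2-D1, the classical heavy chains, were low at E12.5 and higher in all 4 P0 litters. H2-K1 (ENSMUSG00000061232.11) measured 21.7, 6.63, 4.96 and 21.9 CPM in NDP10.2, NPD3, NPD4 and NPD9.2 at E12.5. In NPD26, NPD27, NPD28 and NPD30 of P0 it measured 501, 526, 229 and 40.2 CPM. The stages did not overlap, but NPD30 was 1.84-fold above the highest E12.5 litter whereas NPD27 was 13.1-fold above NPD30. H2-D1 (ENSMUSG00000073411.7) measured 9.67, 7.42, 5.08 and 13.0 CPM at E12.5, in the same order of litters. The P0 litters measured 586, 787, 570.5 and 56.1 CPM. The lowest P0 litter, again NPD30, was 4.30-fold above the highest E12.5 litter. The mean rose from 13.8 ± 9.26 to 324 ± 232 CPM (SD, n = 4) for H2-K1 and from 8.80 ± 3.39 to 499.9 ± 312 CPM for H2-D1. In edgeR's quasi-likelihood test with Benjamini-Hochberg adjustment, the log2 fold change of P0 over E12.5 was 4.57 (SE 0.83, adjusted p = 0.00324) for H2-K1. It was 5.84 (SE 0.77, adjusted p = 0.000702) for H2-D1. Without NPD30 these values were 4.91 and 6.18. H2-K1 had more counts than H2-D1 in NDP10.2 and NPD9.2, with an H2-D1 to H2-K1 ratio of 0.446 and 0.596, and the ratio was 1.02 and 1.12 in NPD4 and NPD3. At P0 it was 1.17, 1.50, 2.49 and 1.40.

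B2m (ENSMUSG00000060802.8), the light chain that all class I heavy chains of this kind need to reach the surface, had the highest mean CPM of the members at both stages. In single P0 litters H2-D1 was above it in NPD28 (570.5 CPM) and Tapbp in NPD30 (123 CPM). B2m measured 75.5, 87.6, 61.1 and 77.9 CPM in the E12.5 litters. At P0 it measured 1589.8, 1691, 503 and 99.5 CPM. NPD30 was only 1.14-fold above the highest E12.5 litter, and the other P0 litters were far above all E12.5 litters. The mean went from 75.5 ± 11.0 to 971 ± 792 CPM, a log2 fold change of 3.68 (SE 0.74, adjusted p = 0.00497, edgeR), and 4.03 without NPD30. Against the E12.5 litters NPD30 alone gave 0.44 (adjusted p = 0.534), with the lone litter assumed to vary like the E12.5 litters. Per kilobase of exon, B2m exceeded the sum of H2-K1 and H2-D1 7.88-, 19.8-, 19.4- and 7.25-fold in the E12.5 litters and 4.65-, 4.06-, 1.96- and 3.26-fold in the P0 litters. The highest P0 ratio was thus below the lowest one at E12.5. This ratio was given no test.

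Tap1 and Tap2, the subunits of the TAP transporter, differed in how low they were at E12.5. Tap1 (ENSMUSG00000037321.13) measured 6.61, 4.49, 2.42 and 9.10 CPM at E12.5. The P0 values were 38.1, 58.3, 49.4 and 8.79 CPM, so NPD30 lay below NPD9.2 and Tap1 was the only member whose stages overlapped. Tap2 (ENSMUSG00000024339.8) had 4 counts in NPD4 (0.484 CPM) and 0 counts in the other E12.5 litters. At P0 it measured 6.92, 12.0, 13.5 and 4.09 CPM, and its lowest P0 litter was 8.47-fold above the highest E12.5 litter. The log2 fold change was 2.80 (SE 0.58, adjusted p = 0.00551, edgeR) for Tap1 and 3.10 without NPD30. For Tap2 it was 5.61 (SE 0.87, adjusted p = 0.00112, edgeR) and 5.82 without NPD30. Without NPD4 all E12.5 litters left were at 0 for Tap2 and the fitted value of 8.77 is no bound. Summed over litters and corrected for library size, Tap2 was 51.4-fold higher at P0 (exact 95% interval 19.9 to 190.1, for counting error only).

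Tapbp (ENSMUSG00000024308.10), which bridges the empty heavy chain to TAP, varied least among the P0 litters. It measured 47.4, 32.4, 15.1 and 37.6 CPM at E12.5. Its P0 values were 129, 174, 195 and 123 CPM, a 1.58-fold range, and every P0 litter was at least 2.60-fold above every E12.5 litter. The log2 fold change was 2.23 (SE 0.34, adjusted p = 0.00111, edgeR), the lowest of the members tested, and 2.29 without NPD30. NPD30 alone gave 1.96 (adjusted p = 0.0307). Other annotated genes cover 29.0% of the exonic bases of Tapbp and 18.5% of those of Tap2, mostly on the other strand, and the strand setting of the counting was not given, so part of these counts is uncertain. For the other members at most 3.87% of exonic bases were covered, and at most 3.59% of the 100-base windows of H2-K1 and H2-D1 matched another gene exactly.

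**Figure D1:**
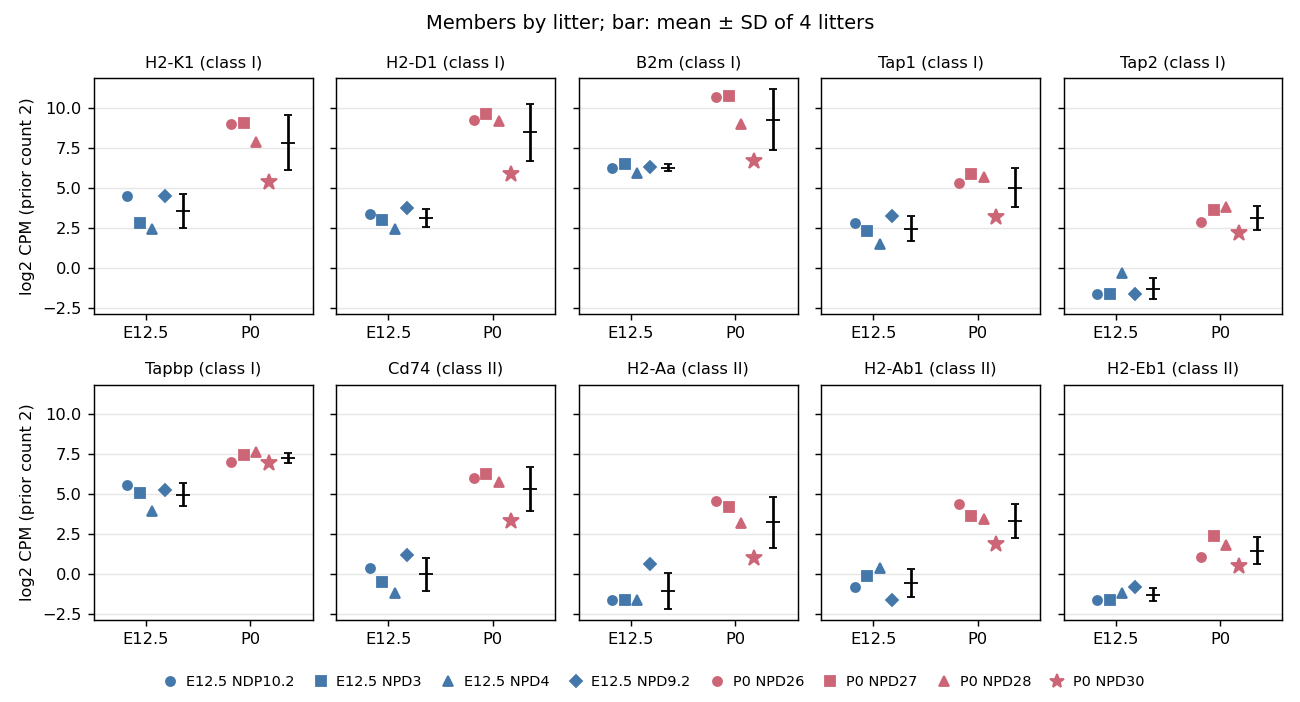
Level of each of the 10 members in the 8 litters as log2 CPM with a prior count of 2 (vertical axis), with E12.5 in blue and P0 in red, 1 symbol per litter, and the black bar the mean ± SD of 4 litters. NPD30 (star) is the lowest P0 litter for each member, and for Tap1 it lies at 8.79 CPM beside 9.10 CPM in the E12.5 litter NPD9.2.

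The class II genes were at or near the floor at E12.5 and present in all 4 P0 litters, where per kilobase of exon each was below both class I heavy chains. Cd74 (ENSMUSG00000024610.10, chr18:60803848-60812652), the invariant chain, measured 0.944, 0.390, 0.121 and 1.97 CPM at E12.5, from 4, 2, 1 and 8 counts. In the P0 litters it measured 62.7, 73.8, 53.2 and 9.40 CPM. The stages did not overlap, and NPD30 was 4.78-fold above NPD9.2. The mean went from 0.855 ± 0.816 to 49.8 ± 28.2 CPM, and the log2 fold change was 6.01 (SE 0.83, adjusted p = 0.000866, edgeR), the highest of the members tested. It was 6.33 without NPD30 and 6.78 without NPD9.2, whereas NPD30 alone gave 3.58 (adjusted p = 0.0803).

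H2-Aa (ENSMUSG00000036594.10), the alpha chain of the I-A molecule, had 5 counts in NPD9.2 (1.23 CPM) and 0 in the other E12.5 litters. The 4 P0 litters measured 23.4, 17.4, 8.83 and 1.67 CPM. NPD30, with 11 counts, was only 1.36-fold above NPD9.2. H2-Ab1 (ENSMUSG00000073421.5), the beta chain that pairs with it, measured 0.236, 0.585, 0.967 and 0 CPM at E12.5. At P0 it measured 20.4, 11.8, 10.24 and 3.34 CPM, without overlap. The log2 fold change was 5.57 (SE 1.20, adjusted p = 0.00660, edgeR) for H2-Aa and 5.90 without NPD30. Without NPD9.2 all E12.5 litters left were at 0 for H2-Aa, and the fitted 9.39 is no bound. Summed counts gave a 54.4-fold higher level of H2-Aa at P0 (exact 95% interval 23.1 to 169, for counting error only). For H2-Ab1 the log2 fold change was 4.45 (SE 0.77, adjusted p = 0.00198, edgeR), 4.72 without NPD30 and 5.19 without NPD4.

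H2-Eb1 (ENSMUSG00000060586.10), the beta chain of the I-E molecule, was the lowest member at P0 and did not pass the filter on low counts. It had 1 count in each of NPD4 and NPD9.2 and none in the other E12.5 litters. At P0 it measured 1.73, 4.90, 3.18 and 1.06 CPM, from 11, 34, 27 and 7 counts, above every E12.5 litter. Without any filter the log2 fold change was 4.61 (adjusted p = 0.00188, edgeR). With NPD30 left out H2-Eb1 passed the filter, at 4.85 (adjusted p = 0.00329, edgeR). It did so only through its P0 litters, so that call adds no support. With all litters, summed counts gave a 30.2-fold higher level at P0 (exact 95% interval 8.09 to 254, for counting error only). The H2-Ea pseudogene (H2-Ea-ps), the annotated alpha partner of H2-Eb1, had 0 counts in all 8 litters, which allows up to 0.0599 CPM over all libraries.

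In the fit over 15467 genes, of which 27.9% passed the threshold, 16.0% rose at P0 and 12.0% fell. All 6 class I members rose, as did the 3 class II members tested. Tap2, H2-Aa and H2-Ab1 passed the filter only through their P0 litters, so their count adds no support. Of the members with an E12.5 litter above the filter, 5 of 5 class I members rose, with a median log2 fold change of 3.68, beside 0.04 over all genes tested, and Cd74 was the single such class II member. Among these members the P0 litters all lay above the E12.5 litters for 4 of 5 of class I and for Cd74, beside 15.5% of all genes tested. NPD30 by itself did so for the same members, beside 29.5% of all genes tested. The stages also did not overlap for Tap2, H2-Aa, H2-Ab1 and H2-Eb1, which had no E12.5 litter above the filter. When NPD30 stood alone for P0, H2-D1 (2.74, adjusted p = 0.00733, edgeR) and Tapbp kept their call. H2-K1 (1.62, adjusted p = 0.241), Tap1 (0.71, adjusted p = 0.670), Tap2 (4.55, adjusted p = 0.149) and H2-Ab1 (2.76, adjusted p = 0.356) did not pass, nor did B2m and Cd74, and H2-Aa was not tested.

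**Figure D2:**
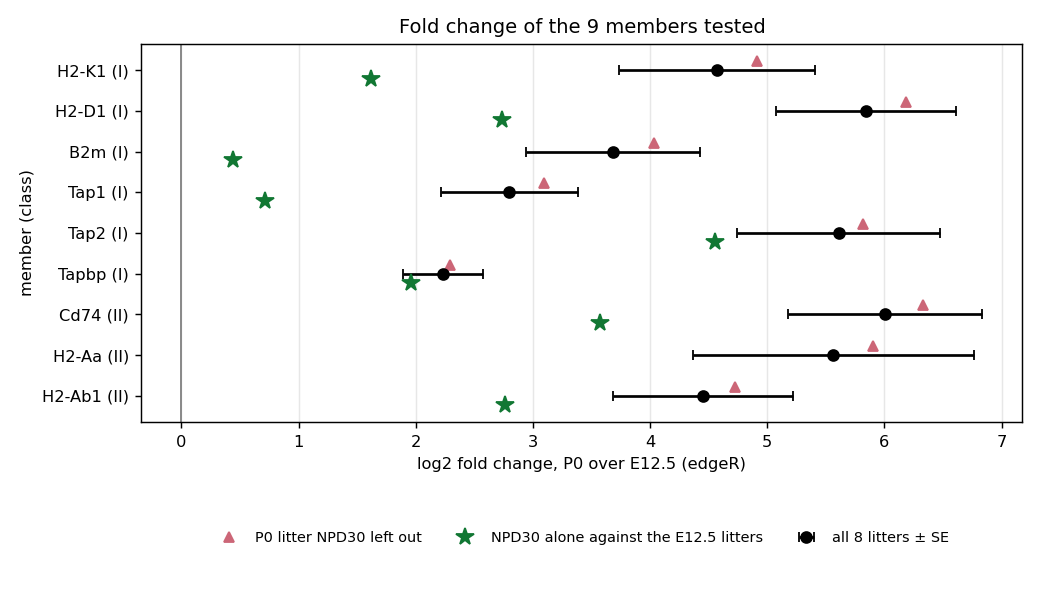
Log2 fold change of P0 over E12.5 (horizontal axis) for the 9 members tested, named on the vertical axis with their class; black points are all 8 litters ± SE, triangles leave out NPD30, and stars set NPD30 alone against the E12.5 litters. Points range from 2.23 (Tapbp) to 6.01 (Cd74), and the star of B2m lies at 0.44.

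Levels of different genes were compared per kilobase of exon. At P0 the order was B2m (1129 ± 920.5 CPM per kb), H2-D1 (194 ± 121), H2-K1 (110.3 ± 79.1), Tapbp (42.8 ± 9.60), Cd74 (29.7 ± 16.8), Tap1 (7.06 ± 3.93), H2-Ab1 (4.46 ± 2.74), H2-Aa (3.38 ± 2.52), Tap2 (2.41 ± 1.16) and H2-Eb1 (1.40 ± 0.88). B2m was above H2-D1, H2-D1 above H2-K1, Cd74 above Tap1, H2-Ab1 above H2-Aa and Tap2 above H2-Eb1 in each of the 4 P0 litters, although H2-Ab1 and H2-Aa were nearly equal in NPD27 (4.605 and 4.594). The other neighbours changed order between litters, and Tapbp exceeded H2-K1 in NPD30. At E12.5 B2m led with 87.8 ± 12.8 CPM per kb, followed by Tapbp (9.13 ± 3.73), H2-K1 (4.70 ± 3.15) and H2-D1 (3.41 ± 1.31), whose values overlapped. The summed heavy chains H2-K1 and H2-D1 exceeded the summed class II chains H2-Aa, H2-Ab1 and H2-Eb1 by 26.5-, 41.3-, 37.6- and 15.5-fold in NPD26, NPD27, NPD28 and NPD30. The E12.5 ratio rests on few class II counts and is not given. Cd74 exceeded the summed class II chains 2.49-, 3.75-, 3.99- and 2.45-fold at P0.

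Of 23 other class I heavy chains and relatives in the files, 12 were tested and 7 rose, with none lower, and 10 rose without NPD30. H2-T23, the ligand of NKG2 receptors (lowest and highest litter 4.25 and 12.0 CPM at E12.5, against 10.16 and 97.3 CPM at P0), rose by a log2 value of 3.20 (adjusted p = 0.00444, edgeR). Fcgrt, the neonatal Fc receptor that also pairs with B2m, had 2.78 (adjusted p = 0.0134) and H2-T22 had 1.38 (adjusted p = 0.0138), whereas H2-T24 did not pass (1.01, adjusted p = 0.129). H2-M3, the heavy chain whose promoter held the spaced pair, was not tested and measured 25.0, 39.2, 7.65 and 0.606 CPM at P0. The immunoproteasome genes rose in 4 of 5 cases. Of these genes Psmb8, Psmb9 and Psmb10 encode subunits that replace constitutive ones and change the peptides produced. Psme1 and Psme2 encode a proteasome activator and replace no such subunit. Psmb8 went from at most 0.846 CPM at E12.5 to 38.5, 50.6, 20.5 and 2.58 CPM at P0 (log2 fold change 5.56, adjusted p = 0.00156, edgeR), and it passed the filter only through P0. Psmb9, which starts beside Tap1, had 3.68 (adjusted p = 0.00474), Psmb10 1.79 (adjusted p = 0.0117) and Psme1 0.85 (adjusted p = 0.0345, passing in 2 of 8 fits with a litter left out), and Psme2 did not pass (0.44, adjusted p = 0.256). Of the 5 genes of the constitutive proteasome list, Psmb5, Psmb6, Psmb7 and the activator genes Psme3 and Psme4, none passed in either direction (median -0.30). Counts of Psmb8 per count of Psmb5, the constitutive subunit it replaces, were at most 0.0317 in the E12.5 litters, whereas the P0 litters had 2.08, 1.96, 1.85 and 0.167.

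Of the 7 peptide loading and trimming genes, 2 rose and 5 did not pass. Canx, Hspa5, Calr and Pdia3, chaperones of the endoplasmic reticulum that also fold many other proteins, had log2 fold changes of 0.45, 0.38, -0.45 and 0.16 (adjusted p = 0.182, 0.421, 0.246 and 0.619, edgeR). Tapbpl, a relative of tapasin that edits peptides, rose (2.23, adjusted p = 0.00347, edgeR), and so did Erap1, an aminopeptidase that trims them (1.49, adjusted p = 0.0357), although Erap1 passed in 2 of 8 fits with a litter left out.

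Class II processing genes rose in 8 of 9 cases, and Ctsl did not pass (0.76, adjusted p = 0.128, edgeR). Ctss, the protease that trims the invariant chain in B cells and dendritic cells, measured 4.71 to 7.22 CPM in the E12.5 litters, and 706, 778, 203 and 8.79 CPM in the P0 litters (log2 fold change 6.12, adjusted p = 0.00316, edgeR). Ctsb, Lgmn and Ctsd, lysosomal proteases of many cell types, had 3.65 (adjusted p = 0.00532), 3.51 (adjusted p = 0.00289) and 2.84 (adjusted p = 0.00786). NPD30 lay within the range of the E12.5 litters for Ctsb and Ctsd. Among 6 other class II genes 2 were tested. H2-Oa, part of the modulator of peptide exchange, rose (4.61, adjusted p = 0.00761, edgeR), having passed the filter only through P0, and H2-DMa, part of the exchange factor itself, did not pass (1.49, adjusted p = 0.134). Of 6 costimulation genes 3 were tested and 2 rose, Cd274 (PD-L1, an inhibitory ligand, 2.63, adjusted p = 0.00596) and Icosl (1.92, adjusted p = 0.0336, passing in 2 of 8 fits with a litter left out), whereas Cd40 did not pass (0.21, adjusted p = 0.845).

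The factors known to drive each class were examined next. Of 8 class II enhanceosome and transactivator genes none rose and Nfyc, a subunit of the Y box factor, fell (-0.91, adjusted p = 0.0274, edgeR), passing in 5 of 8 fits with a litter left out. Ciita, the class II transactivator, measured 3.54, 0, 0.846 and 3.44 CPM in the E12.5 litters. Its P0 values were 5.82, 3.89, 2.00 and 0.455 CPM. The groups overlapped and the log2 fold change was 0.68 (SE 0.96, adjusted p = 0.645). All 9 class I transactivator and interferon factors rose, as in the fit without NPD30. Nlrc5, the class I transactivator, measured 0, 0.585, 0.363 and 1.97 CPM in the E12.5 litters. Its P0 values were 20.0, 45.1, 19.7 and 1.82 CPM. NPD30 was therefore below NPD9.2, and the log2 fold change was 4.95 (SE 1.03, adjusted p = 0.00591, edgeR). Irf8, a factor of myeloid and B cells, had 5.11 (adjusted p = 0.00433), Nfkb1 1.84 (adjusted p = 0.00111), Irf2 1.62 (adjusted p = 0.00360) and Rela 0.77 (adjusted p = 0.0360, passing in 2 of 8 fits with a litter left out).

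Of 22 interferon-stimulated genes 19 were tested and all 19 rose, with and without NPD30, and 2 of the 19 passed the filter only through P0. Their summed level was 26.5 to 82.6 CPM at E12.5 and 697, 1010.4, 533 and 289 CPM in the P0 litters. Gbp7 and Irgm1, interferon-induced GTPases, had log2 fold changes of 3.15 (adjusted p = 0.00201, edgeR) and 2.89 (adjusted p = 0.00477). Ifi44 and Xaf1 had 3.27 (adjusted p = 0.0113) and 3.06 (adjusted p = 0.00606). For 20 of the 22, NPD30 lay above every E12.5 litter, beside 29.5% of all genes tested. The 22 include genes that were not tested and genes that passed the filter only through P0. Of 9 interferon gamma and type I receptor genes 8 were tested and 6 rose, among them Ifngr1 (2.49, adjusted p = 0.00342), Ifngr2 (1.76, adjusted p = 0.00190) and Jak1 (1.50, adjusted p = 0.00347), whereas Ifnar1 did not pass (0.79, adjusted p = 0.0559). Ifng, the ligand, had 0 counts at E12.5 and 0.157 CPM in NPD26 as its only signal at P0.

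**Figure D3:**
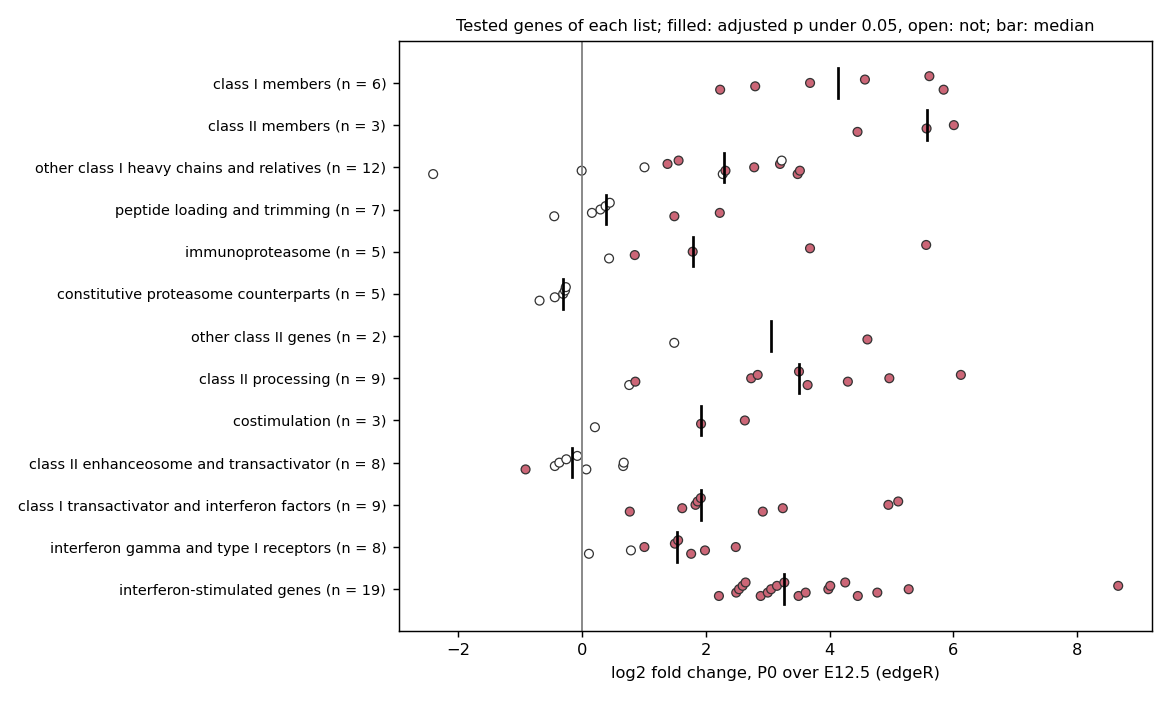
Log2 fold change of P0 over E12.5 (horizontal axis) for the tested genes of each list (vertical axis, with the number tested); filled points passed an adjusted p of 0.05, open points did not, and the bar is the median. The class II enhanceosome list (median -0.16) and the constitutive proteasome list (median -0.30) lie around 0, and the interferon-stimulated genes (median 3.27) lie wholly to the right.

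Markers of several leukocyte types moved with the members, and their part in the results was not tested. All 12 pan-leukocyte markers rose, and so did 9 of 9 tested macrophage markers, 8 of 8 tested neutrophil markers and 7 of 8 tested B cell markers, of which 2 neutrophil and 5 B cell markers passed the filter only through P0. Of 3 tested dendritic cell markers Itgax, which passed only through P0, rose, and Zbtb46 (-0.39, adjusted p = 0.372, edgeR) and Batf3 (-0.66, adjusted p = 0.484) did not pass. The macrophage sum was 74.8 to 143 CPM at E12.5 and 5042, 5695, 1846 and 73.2 CPM in the P0 litters, so that NPD30 was below every E12.5 litter. Csf1r was the single macrophage marker of 10 that was higher in NPD30 (36.1 CPM) than in all E12.5 litters (at most 28.5 CPM). In the same litter the members summed to 332 CPM for class I, against 89.1 to 161 CPM at E12.5. For class II they summed to 15.5 CPM, against 0.976 to 3.44 CPM. In that litter neutrophil markers summed to 990.3 CPM, against 4.25 to 16.0 CPM at E12.5, and Ptprc (CD45) measured 50.5 CPM, against 3.12 to 5.16 CPM at E12.5. B cell markers summed to 115 CPM in NPD30 and 226 to 623 CPM in the other P0 litters. At E12.5 they summed to 49.4 to 363 CPM, so the sums overlapped. Most of the E12.5 sums was Ebf1 (43.3 to 361 CPM), which mesenchymal cells also express, and it gave 84.9 CPM in NPD30. Taken singly, 8 of the 11 B cell markers were higher at P0 without overlap of the stages, beside 15.5% of all genes tested. For 9 of the 11, NPD30 exceeded the E12.5 range, beside 29.5% of all genes tested. The 11 include genes that were not tested and genes that passed the filter only through P0, so these counts add no support. Dendritic cell markers summed to 31.1 to 63.0 CPM in the E12.5 litters and 48.2 to 157 CPM in the P0 litters, with Itgax and Cd209a at 0 in all E12.5 litters. T and NK cell markers summed to 0.738 to 5.19 CPM in the E12.5 litters and 183, 212, 111 and 5.31 CPM in the P0 litters, of which Cd4 made up 177, 201, 85.8 and 0.758 CPM, and Cd3d, Cd3g, Ncr1 and Nkg7 were at 0 at E12.5. Endothelial markers summed to 89.2 to 182 CPM in the E12.5 litters and 33.8 to 130 CPM in the P0 litters, with 2 of 8 lower and none higher.

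Among the P0 litters Cd74 was highest in NPD27, then NPD26, NPD28 and NPD30. The macrophage, dendritic cell, T and NK cell and interferon-stimulated gene sums had the same order. So did the endothelial sum, although no endothelial marker rose. The notochord and NP sum had the reverse order. The B cell, neutrophil and pan-leukocyte sums had neither order, and were highest in NPD28 (623, 6935 and 4638 CPM). In NPD26, NPD27 and NPD28 the T and NK cell sum was mostly Cd4. In NPD30 Zbtb46 made up 42.6 of the 48.2 CPM of the dendritic cell sum. NPD28 had less Cd74, H2-Aa and H2-Ab1 than NPD26 and NPD27, but more H2-Eb1 than NPD26 (3.18 against 1.73 CPM). H2-Aa and H2-Ab1 were highest in NPD26, not in NPD27. Cd74 per count of Ptprc was 0.359, 0.295, 0.0937 and 0.186 in the P0 litters and 0.0370 to 0.381 in the E12.5 litters. The ranges overlapped, but those of E12.5 rest on 1 to 8 Cd74 counts per litter. Such counts are too few to compare the stages in this ratio. H2-K1 per count of Ptprc was 2.87, 2.10, 0.403 and 0.796 at P0 and 1.52 to 6.57 at E12.5, again overlapping. The E12.5 values of both ratios rest on Ptprc at 3.12 to 5.16 CPM, so counting error limits them.

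**Figure D4:**
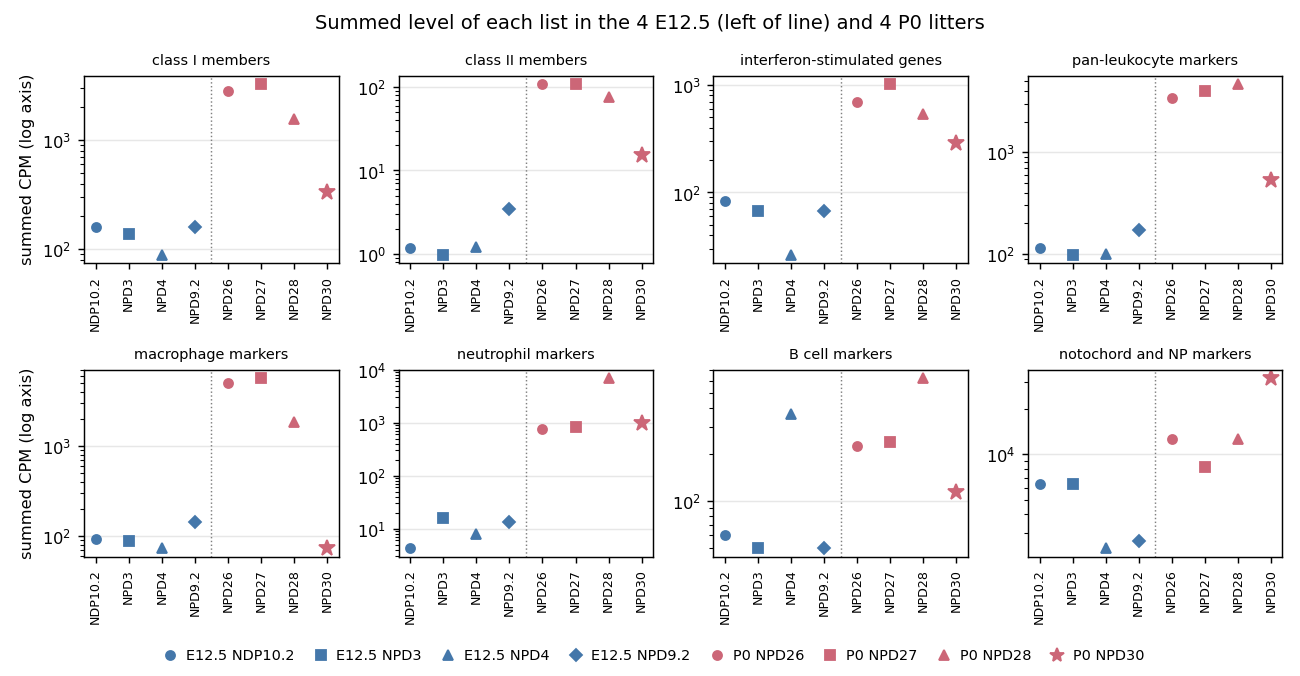
Summed CPM on a log axis (vertical) in each of the 8 litters (horizontal; E12.5 left of the dotted line, P0 right of it) for the class I and class II members, the interferon-stimulated genes and 5 marker lists. NPD30 (star) has 73.2 CPM of macrophage markers, below the 74.8 to 143 CPM of the E12.5 litters, and 332 CPM of class I and 15.5 CPM of class II members, above them.

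The genes whose pattern was most like that of a member were found by the root mean square difference of log2 CPM, centred per gene, over the 8 litters, among 12688 genes tested with a mean log2 CPM of at least 2. For Cd74 the closest was another member, H2-D1, at 0.39, followed by Tnfrsf1b (0.46), a TNF receptor, Ddx60 (0.50), Lgals3bp (0.54) and Rtp4 (0.55). For B2m they were Sat1 (0.22), Ctsb (0.24), Lgmn (0.27), Cyp4v3 (0.31) and Ctsc (0.31), of which Ctsb, Lgmn and Ctsc encode lysosomal proteases. All of these points share the 8 libraries and the difference between the stages.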

How the data were processed

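RNA-Seq of NDCs was compared between 4 litters at E12.5 and 4 at P0, each litter a separate pool of animals. The authors deposited raw counts per Gencode M4 gene, without normalization. Per the submitters' processing notes and the methods, reads were demultiplexed with CASAVA 1.8.2 and bcl2fastq, aligned with STAR 2.4.0j to GRCm38 and counted with HTSeq; multi-mapping reads (26.3% to 33.7% of all tallied) and ambiguous reads (7.07% to 17.5%) were not counted on genes, a loss that can touch homologous H2 genes, and 22.7% to 29.5% fell on no feature. These tallies were left out.

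Counts were tested in R 4.3.3 with edgeR 4.0.16 (TMM, filterByExpr with a minimum count of 10 and total of 15, quasi-likelihood test, Benjamini-Hochberg adjustment over all genes, threshold 0.05). The filter fell at about 1.54 CPM. Log2 CPM adds a prior count of 2, and the SE is the log2 fold change divided by the square root of F. The study used DESeq2, here 1.42.0 and an alternative, as were limma 3.58.1 (voom), other normalizations and filters, and each litter left out in turn. The method was tested on simulated data. Of 43346 identifiers 42462 matched a symbol, and 206 of 209 listed symbols were in the files. Named were the members, up to 4 genes with the highest mean CPM per list plus genes the results turn on, and the 5 genes nearest to Cd74 and to B2m. Psmb5, Psmb9, Tapbpl, Erap1, Ctsl, H2-M3, Ciita and Nlrc5 were named beyond the highest by level, after their values were seen. The members and lists were chosen with earlier results of these data known. Exon lengths and positions are Gencode M21 and promoters RefSeq, GRCm38.p6.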

Additional observations from a re-analysis of the deposited data

Results flagged for a closer look

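Of 20 tests of a gap within a stage, 4 were above the critical value, which chance exceeds in about 1 in 20 independent tests. These tests share the same 8 libraries, so their number above it cannot be set against that rate. Among the P0 litters NPD30 was far below the others for H2-D1 (56.1 CPM against 570.5 to 787, gap over range 0.878 on the log2 scale) and for Cd74 (9.40 against 53.2 to 73.8 CPM, 0.84). Among the E12.5 litters NPD4 was alone above 0 for Tap2, with 4 counts, and NPD9.2 for H2-Aa, with 5 counts, which gave a gap over range of 1 for each. With every other litter of the stage at 0, that value is fixed whatever the count. The cause of these gaps was not tested.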

How the results depend on the processing

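The 9 members tested kept their direction and their call under DESeq2, limma-voom, DESeq2 size factors, upper quartile normalization, no filter and without mitochondrial and hemoglobin genes, with log2 fold changes of 2.07 to 6.12. None of these settings reversed a member. Requiring at least 10 counts in every sample left 5 class I members, all called, and 0 class II members, because none of those has 10 counts in every sample. With each litter left out in turn, 6 to 6 class I and 3 to 4 class II members and 3612 to 4529 of all genes were called, beside 4321 with all litters. Setting NPD30 alone for P0, an alternative chosen after the data were seen, called 2 class I members, 0 class II members and 1054 genes, with fewer samples. That fit gave the members log2 fold changes of 0.44 to 4.55. With all 8 litters, calls among all genes ranged from 3063 (at least 10 counts in every sample) to 5207 (DESeq2). Upper quartile normalization moved the median of all genes from 0.04 to -0.11 and the higher share of calls from 57.1% to 47.5%. Without the filter that median was 0.45. At E12.5 the class II members and Tap2 had 0 to 8 counts per litter, so counting error limits their fold changes. No paired analysis was possible because the stages are different litters and the labels give no replicate numbers that they share. Stage, dissection, sorting and cell makeup cannot be told apart.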
